A study of Sus scrofa with 9 samples.

Results

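The metalloproteases ADAMTS1, ADAMTS4, ADAMTS5, ADAMTS9, MMP2, MMP9 and MMP14 and their inhibitors TIMP1, TIMP2 and TIMP3 were followed in porcine hearts after circulatory death, storage and warm reperfusion. They were taken by gene symbol from the expression table, which listed 9 of these 10 symbols among its 25149 genes. TIMP3 was found neither by symbol nor by its Ensembl identifier and is not analysed here. ADAMTS5 stayed under 1 TPM in every heart, and 8 genes passed the filter on low values (at least 1 TPM in at least 3 of 9 hearts). TPM, or length-normalised transcript abundances, divide the reads of a gene by its length and give every heart the same sum, so that levels can be set side by side between genes.

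RNA sequencing covered 9 hearts of female American Yorkshire pigs in 3 groups of 3, with 1 apex biopsy of myocardium per heart and 1 heart per pig. In all groups heparin was given, the heart stopped after a neuromuscular blocker (vecuronium) and the end of ventilation, and a period of warm ischemia followed. Every heart was reperfused at the end on a normothermic machine perfusion (NMP) circuit primed with donor whole blood, with the biopsy taken after 2 h on it. Pigs 27, 28 and 30 formed Group 1 (NRP + HOPE 24 h). They received normothermic regional perfusion (NRP), a warm oxygenated reperfusion of the heart in place before it is arrested, and their hearts then spent 24 h in hypothermic oxygenated perfusion (HOPE), for which packed red blood cells were added to the perfusate. Pigs 24, 25 and 29 formed Group 2 (NRP + SCS 2 h), with NRP and then 2 h of static cold storage (SCS). Pigs 31, 33 and 34 formed Group 3 (No NRP + HOPE 2 h), procured directly without NRP and kept for 2 h in HOPE. Group 1 therefore differed from Group 2 in both the method and the duration of storage, Group 3 differed from Group 2 in both NRP and the storage method, and Group 1 differed from Group 3 in both NRP and duration. The factors of each comparison cannot be told apart. No heart without ischemia or without NMP was sequenced among these samples.

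Matrix metalloproteinases (MMPs) are zinc-dependent enzymes that cut collagens, gelatin and other matrix proteins. They are made as inactive proenzymes, and MMP14 at the cell surface together with TIMP2 is the known activator of pro-MMP2. ADAMTS proteases carry thrombospondin repeats and mostly cut proteoglycans, versican being a main substrate in the heart. Tissue inhibitors of metalloproteinases (TIMPs) bind the active site, TIMP1 also pairing with pro-MMP9 and TIMP2 with pro-MMP2, and TIMP3 is the member of the family that best inhibits ADAMTS4 and ADAMTS5. In myocardium these enzymes come largely from fibroblasts, endothelial cells and leukocytes and are known for their response to ischemia and reperfusion. Messenger RNA measures neither proenzyme activation nor activity.

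The samples are labelled as cardiomyocytes, but the libraries were made from whole tissue. The 8 listed cardiomyocyte markers summed to between 31413 and 60085 TPM, and markers of other cells were present in every heart, with 692 to 1164 TPM over 6 fibroblast markers, 371 to 838 TPM over 9 endothelial markers and 66.1 to 223 TPM over 6 macrophage markers. The 9 listed pericyte and smooth muscle markers summed to 1147 to 3252 TPM. Among them DES alone was at 747 to 2806 TPM, and MYH11 was at 0 in all hearts. Markers of lymphocytes, mast cells, mesothelium and adipocytes summed to at most 31.1 TPM per list and heart. In such bulk samples, fewer cells of a type and less RNA per cell cannot be told apart. The 13 mitochondrially encoded protein genes took 38.2% of TPM in pig 30 and 44.8% to 55.3% in the other hearts. Hearts correlated across genes at r = 0.91 to 0.96, and no pair of columns was identical.

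TIMP1 was the most abundant gene of the set and ADAMTS5 the least. Over the 9 hearts, mean TPM was 559 ± 213 (SD, n = 9) for TIMP1, 194 ± 61.7 for ADAMTS4, 73.7 ± 28.3 for MMP2, 58.8 ± 18.3 for TIMP2 and 38.6 ± 17.1 for ADAMTS9. MMP14 and ADAMTS1 followed at 20.0 ± 9.49 and 19.9 ± 4.67, MMP9 at 1.58 ± 1.29 and ADAMTS5 at 0.469 ± 0.319. The mean of TIMP1 lay at percentile 98.9 of the 11782 genes tested and that of ADAMTS4 at percentile 97.0, whereas MMP9 lay at percentile 13.8. In this order the ranges of neighbouring genes overlapped except at 2 steps. The lowest TIMP1 value of 332 TPM was above the highest ADAMTS4 value of 318 TPM, and the lowest ADAMTS1 value of 12.2 TPM was above the highest MMP9 value of 3.96 TPM. ADAMTS4, an aggrecanase, was thus present at a higher level than the gelatinase MMP2 and at a far higher level than the related aggrecanase ADAMTS5.

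**Figure D1:**
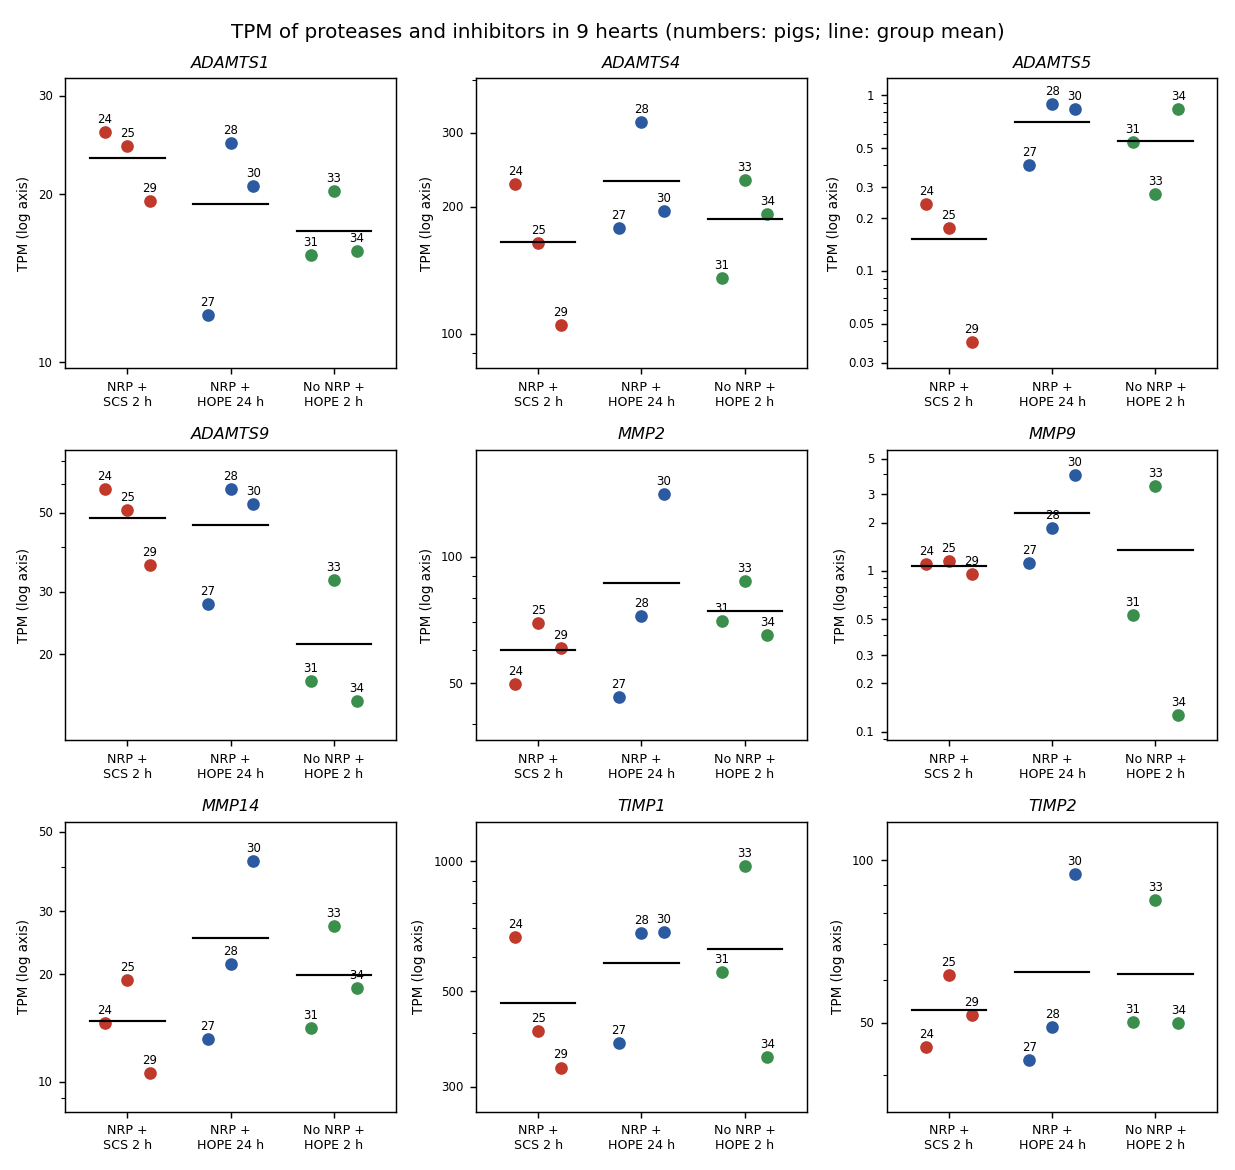
TPM on a log axis for the 9 listed genes, with 1 panel per gene, 1 point per heart (pig number above it) and a line at the mean of each group of 3 hearts. ADAMTS9 is the panel in which the No NRP + HOPE 2 h hearts (14.8 to 32.3 TPM) lie below all NRP + SCS 2 h hearts (35.6 to 58.3 TPM), and ADAMTS5 stays under 1 TPM throughout.

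ADAMTS9 was the member with the clearest difference between groups. ADAMTS9 encodes a protease that cuts versican and aggrecan and is also known as an inhibitor of angiogenesis in endothelial cells. The level of ADAMTS9 was 58.3, 50.8 and 35.6 TPM in the Group 2 hearts of pigs 24, 25 and 29, and 27.6, 58.2 and 53.0 TPM in the Group 1 hearts of pigs 27, 28 and 30. In the Group 3 hearts of pigs 31, 33 and 34 it was 16.8, 32.3 and 14.8 TPM. The hearts procured without NRP were all below the Group 2 hearts, while pig 33 of the former exceeded pig 27 of Group 1.

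The group means of ADAMTS9 were 48.2 ± 11.5 TPM (SD, n = 3) in Group 2, 46.3 ± 16.4 TPM in Group 1 and 21.3 ± 9.60 TPM in Group 3. On the log2(TPM + 1) scale ADAMTS9 was lower by a log2 fold change of -1.20 (SE 0.37, 95% interval -1.99 to -0.40) in Group 3 than in Group 2, which is 2.29-fold, with an unadjusted p of 0.00614 in limma and an exact permutation p of 0.1 over these 6 hearts, two-sided, the smallest that 3 against 3 allows. After Benjamini-Hochberg adjustment over the 11782 genes tested, limma's adjusted p was 0.472. ADAMTS9 was higher in Group 1 than in Group 3 by a log2 fold change of 1.10 (95% interval 0.30 to 1.89, limma p = 0.0104, adjusted p = 0.573), with overlapping hearts and an exact permutation p of 0.2. Between the 2 groups that received NRP the log2 fold change of ADAMTS9 (Group 1 minus Group 2) was -0.10 (SE 0.37, 95% interval -0.89 to 0.70, exact permutation p = 0.8), and it was 0.044 after median-of-ratios scaling. These comparisons share hearts and are not independent of each other.

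Differences between groups made up 62.6% of the sum of squares of ADAMTS9 over the 9 hearts, against a median of 21.8% over all genes tested, which put ADAMTS9 at percentile 94.5. The share was 29.3% for ADAMTS1 and between 4.72% (TIMP2) and 23.0% (MMP14) for the other 6 genes that passed the filter, so that most of the variation in MMPs and TIMPs was between hearts of the same group, as it was for the median gene.

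At an unadjusted p under 0.05 in limma, 1 of 8 members (ADAMTS9, lower) was called in Group 3 against Group 2, where 7.22% of all genes tested were called (2.57% higher and 4.65% lower). In Group 1 against Group 3, 1 of 8 (ADAMTS9, higher) was called, beside 6.01% of all genes (2.78% higher and 3.23% lower). In Group 1 against Group 2, 0 of 8 were called, beside 4.97% of all genes (1.82% higher and 3.14% lower). With so few members, these counts do not stand apart from the background. No comparison called a member (0 in each) at an adjusted p under 0.05 in limma and more than 1 log2 unit of change, where 0.0509%, 0.0509% and 0.0255% of all genes were called in the same order.

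Hearts of Group 3 and Group 2 did not overlap for 1 of the 8 (ADAMTS9), as for 14.7% of all genes tested (4.44% higher and 10.3% lower in Group 3). For the other pairs of groups none of the 8 separated, beside 9.82% of genes in Group 1 against Group 2 (2.5% higher and 7.32% lower) and 7.48% in Group 1 against Group 3 (2.97% higher and 4.51% lower). The fitted log2 fold change was above zero for 6 of 8 members in Group 1 against Group 2, for 5 of 8 in Group 3 against Group 2 and for 6 of 8 in Group 1 against Group 3, whereas it was above zero for 35.9%, 42.2% and 46.1% of all genes tested. The members' intervals nearly all included zero, so that these signs are a description.

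The scaling of the table bears on directions. Over all genes tested, the median log2 fold change was -0.12 in Group 1 against Group 2, -0.074 in Group 3 against Group 2 and -0.035 in the third comparison, and median-of-ratios scaling brought each to within 0.01 of zero. With TPM, 36.8%, 35.6% and 46.2% of the genes at an unadjusted p under 0.05 were higher in these comparisons, and with that scaling 54.5%, 47.0% and 52.5%. The median log2 fold change of the 8 members was 0.36, 0.20 and 0.17 in the same order on TPM, above that of all genes in each. With median-of-ratios scaling, ADAMTS9 stayed at -1.10 in Group 3 against Group 2, still at an unadjusted p under 0.05.

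**Figure D2:**
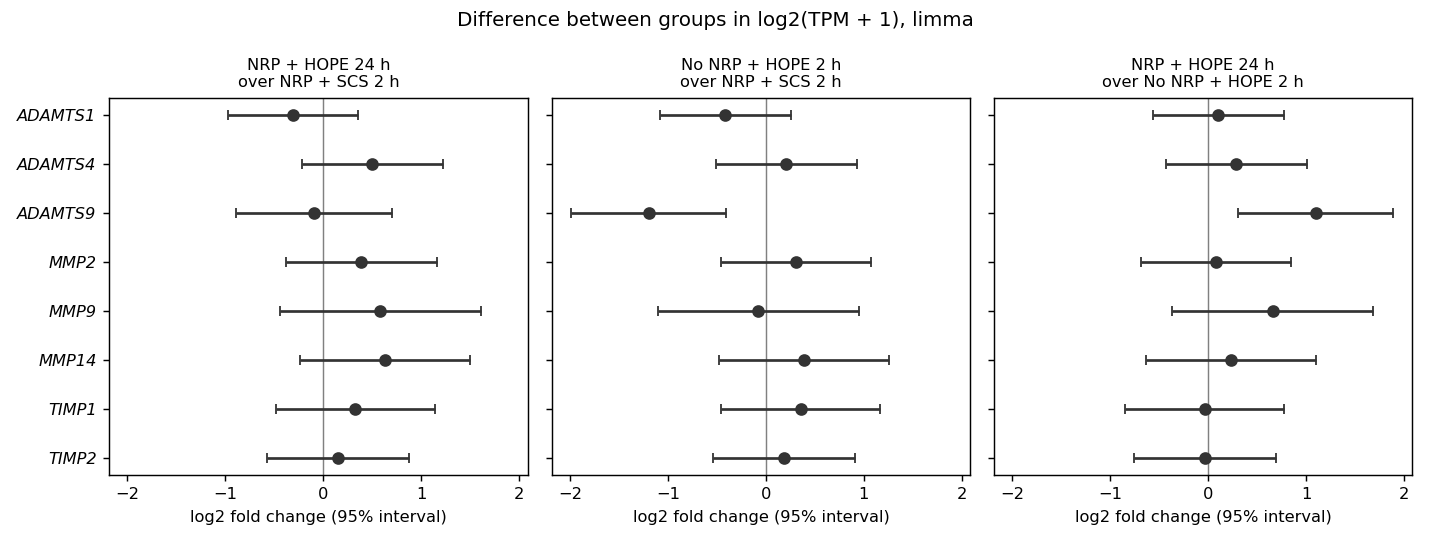
Log2 fold change on the log2(TPM + 1) scale with its 95% interval from limma for the 8 genes that passed the filter, in the 3 comparisons named above the panels (3 hearts against 3 in each). The interval of ADAMTS9 lies away from zero in the middle panel (-1.99 to -0.40) and in the right panel (0.30 to 1.89), and all other intervals include zero.

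ADAMTS1, a versican-cutting protease induced by inflammation, varied least over the hearts, 2.13-fold from lowest to highest. The Group 2 hearts had 25.9, 24.4 and 19.5 TPM of ADAMTS1 (pigs 24, 25 and 29), the Group 1 hearts 12.2, 24.7 and 20.7 TPM (pigs 27, 28 and 30), and the Group 3 hearts 15.6, 20.2 and 15.8 TPM (pigs 31, 33 and 34). Both HOPE groups overlapped the SCS group. Over Group 2, ADAMTS1 had a log2 fold change of -0.31 (SE 0.31, 95% interval -0.98 to 0.36, exact permutation p = 0.6) in Group 1 and of -0.41 (95% interval -1.08 to 0.26, exact permutation p = 0.2) in Group 3.

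ADAMTS4 cuts aggrecan, versican and brevican and is induced by inflammatory cytokines. Its level was 227, 164 and 105 TPM in Group 2 (pigs 24, 25 and 29), 178, 318 and 196 TPM in Group 1 (pigs 27, 28 and 30), and 136, 232 and 192 TPM in Group 3 (pigs 31, 33 and 34). Pig 28 was highest and pig 29 lowest, and the 3 groups overlapped. ADAMTS4 had a log2 fold change of 0.50 (SE 0.33, 95% interval -0.22 to 1.22, exact permutation p = 0.4) in Group 1 over Group 2 and of 0.21 (95% interval -0.51 to 0.93, exact permutation p = 0.6) in Group 3 over Group 2.

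ADAMTS5, the other main aggrecanase and a versican-cutting enzyme, stayed under 1 TPM in every heart. It was listed at 0.240, 0.175 and 0.0393 TPM in Group 2 (pigs 24, 25 and 29), at 0.399, 0.887 and 0.830 TPM in Group 1 (pigs 27, 28 and 30), and at 0.541, 0.275 and 0.836 TPM in Group 3 (pigs 31, 33 and 34). All 6 hearts stored in HOPE lay above all 3 hearts stored in SCS. Transcripts of red cells moved the same way, HBB (beta-globin) being at 70.8, 132 and 78.4 TPM in Group 2, 73.5, 339 and 420 TPM in Group 1 and 220.2, 368 and 220.1 TPM in Group 3. Of 6 erythroid markers 3 were listed and 2 tested, HBB and ALAS2 (an enzyme of heme synthesis). Their log2 fold changes over Group 2 were 1.27 and 0.91 in Group 1 (exact permutation p = 0.3 and 0.4) and 1.52 and 1.14 in Group 3 (exact permutation p = 0.1 for both). The sum of the 3 was between 71.4 and 133 TPM in Group 2, 73.9 and 424.8 TPM in Group 1 and 222 and 373 TPM in Group 3, with no listed marker at 0 throughout. The part of red cells in the differences between HOPE and SCS hearts was not tested, here and for the genes named further on. For ADAMTS5 the exact permutation p was 0.1 for each HOPE group against SCS, the smallest possible. Of all genes tested, 2.5% were higher without overlap in Group 1 than in Group 2, and 4.44% in Group 3 than in Group 2. The share of genes that set both HOPE groups apart from SCS at once was not computed, here and for the genes named further on. The 2 HOPE groups also differ in NRP and duration. With no filter on low values, which brought 17146 genes into the fit, the log2 fold change of ADAMTS5 over Group 2 was 0.56 (SE 0.19, adjusted p = 0.949) in Group 1 and 0.42 (SE 0.19, adjusted p = 0.788) in Group 3, both at an unadjusted p under 0.05 in limma. In that fit 854 genes passed this threshold in Group 1 and 1076 in Group 3, each against Group 2. The pseudocount of 1 TPM shrinks fold changes at such levels, and the read counts behind values under 1 TPM are unknown. ADAMTS1 and ADAMTS5 are close neighbours on a chromosome in the RefSeq annotation of Sscrofa11.1, with 1 annotated gene between them, yet their levels differed widely.

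The gelatinase MMP2, made chiefly by fibroblasts, was highest in 1 heart. The Group 2 hearts had 49.7, 69.5 and 60.7 TPM of MMP2 (pigs 24, 25 and 29), the Group 1 hearts 46.4, 72.1 and 142 TPM (pigs 27, 28 and 30) and the Group 3 hearts 70.4, 87.8 and 65.0 TPM (pigs 31, 33 and 34). Group 1 thus held both the lowest and the highest heart, and its SD of 49.3 TPM compared with 9.91 and 11.9 TPM in the other groups. MMP2 had a log2 fold change of 0.39 (SE 0.36, 95% interval -0.38 to 1.15, exact permutation p = 0.6) in Group 1 over Group 2. It was -0.038 without pig 30 and 0.76 without pig 27, the latter at an unadjusted p under 0.05 in limma. In Group 3 over Group 2 the log2 fold change of MMP2 was 0.31 (95% interval -0.46 to 1.07, exact permutation p = 0.2).

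MMP9, the gelatinase that neutrophils and macrophages carry and release, was low. It was listed at 1.10, 1.16 and 0.962 TPM in Group 2 (pigs 24, 25 and 29), at 1.11, 1.85 and 3.96 TPM in Group 1 (pigs 27, 28 and 30), and at 0.535, 3.39 and 0.127 TPM in Group 3 (pigs 31, 33 and 34). It reached 1 TPM in 6 of 9 hearts, and the 3 hearts without NRP spanned nearly its whole range. Over Group 2, MMP9 had a log2 fold change of 0.58 (SE 0.48, 95% interval -0.45 to 1.61, exact permutation p = 0.2) in Group 1 and of -0.077 (95% interval -1.10 to 0.95, exact permutation p = 1) in Group 3. Neutrophil messenger RNA was scarce as well. The 7 listed of 12 neutrophil markers summed to 6.38 to 16.9 TPM in Group 2, 3.02 to 7.40 TPM in Group 1 and 1.82 to 6.22 TPM in Group 3, and the defining markers CSF3R and MPO were at 0 in all 9 hearts. The low level of MMP9 messenger RNA says nothing of protein that neutrophils bring in stored form.

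MMP14, the membrane-type protease that activates pro-MMP2, had 14.6, 19.2 and 10.6 TPM in Group 2 (pigs 24, 25 and 29), 13.1, 21.3 and 41.5 TPM in Group 1 (pigs 27, 28 and 30), and 14.1, 27.3 and 18.3 TPM in Group 3 (pigs 31, 33 and 34). The highest values were again those of pigs 30 and 33, and the groups overlapped. In Group 1 over Group 2, MMP14 had a log2 fold change of 0.63 (SE 0.40, 95% interval -0.24 to 1.49, adjusted p = 0.993, exact permutation p = 0.3). It passed an unadjusted p under 0.05 in limma with median-of-ratios scaling (0.76) and without pig 27 (1.0), and it was 0.21 without pig 30. In Group 3 over Group 2 the log2 fold change of MMP14 was 0.39 (95% interval -0.47 to 1.26, exact permutation p = 0.5).

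TIMP1, the inducible inhibitor of most MMPs, varied widely within every group. It was at 666, 405 and 332 TPM in Group 2 (pigs 24, 25 and 29), 379, 681 and 686 TPM in Group 1 (pigs 27, 28 and 30), and 553, 973 and 352 TPM in Group 3 (pigs 31, 33 and 34). The highest value, in pig 33, and the values near the lowest, in pigs 29, 34 and 27, came from all 3 groups. Over Group 2, TIMP1 had a log2 fold change of 0.33 (SE 0.38, 95% interval -0.49 to 1.14, exact permutation p = 0.5) in Group 1 and of 0.36 (95% interval -0.45 to 1.17, exact permutation p = 0.6) in Group 3. TIMP1 overlaps SYN1, TIMP2 overlaps CEP295NL, and ADAMTS9 and ADAMTS1 overlap 3 and 1 uncharacterized genes in the RefSeq annotation of Sscrofa11.1. Whether reads were counted by strand is not given in the sources used here, so that reads of such overlapping genes may be mixed with theirs.

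TIMP2, a constitutive inhibitor, varied little outside 2 hearts. Its level was 45.1, 61.4 and 51.7 TPM in Group 2 (pigs 24, 25 and 29), 42.7, 49.0 and 94.3 TPM in Group 1 (pigs 27, 28 and 30), and 50.2, 84.5 and 50.0 TPM in Group 3 (pigs 31, 33 and 34). Pigs 30 and 33 stood at 94.3 and 84.5 TPM and the other 7 hearts between 42.7 and 61.4 TPM. Over Group 2, TIMP2 had a log2 fold change of 0.15 (SE 0.34, 95% interval -0.57 to 0.88, exact permutation p = 0.9) in Group 1 and of 0.19 (95% interval -0.54 to 0.91, exact permutation p = 0.7) in Group 3.

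In Group 1 over Group 3, the log2 fold changes of the members other than ADAMTS9 ran from -0.033 (TIMP1, 95% interval -0.84 to 0.78, and TIMP2, -0.76 to 0.69) to 0.66 (MMP9, -0.37 to 1.69), with exact permutation p from 0.4 to 1. The signs of TIMP1 and TIMP2 turned with median-of-ratios scaling. The upper bounds were 1.69 for MMP9 and between 0.69 (TIMP2) and 1.10 (MMP14) for the others, so that differences up to these sizes lay within what 3 hearts a group leave undetected.

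Pigs 30 (Group 1) and 33 (Group 3) were the 2 highest hearts in MMP2, MMP9, MMP14, TIMP1 and TIMP2, that is in 5 of 8 members, a pattern noted after the values were seen. They were the 2 highest in 7.64% of all genes tested, and the commonest such pair, pigs 30 and 34, in 14.3%. With median-of-ratios scaling this held for 3 of 8 (MMP9, MMP14 and TIMP2) and 2.38% of genes. Relative to the mean of 9 hearts, pig 30 was higher by 1.01 in MMP2, 1.09 in MMP9 and 1.13 in MMP14 on the log2(TPM + 1) scale. Pig 33 was higher by 0.91 in MMP9 and 0.89 in TIMP1. Pig 27, which shared its group with pig 30, was below the mean in all 9 listed genes, by -0.63 in ADAMTS1 and -0.58 in MMP2. Pig 30 also had the lowest mitochondrial share of TPM (38.2%) and pig 27 the highest (55.3%). Over the 9 hearts the mitochondrial share ran against MMP2 (r = -0.68, rho = -0.35), MMP14 (r = -0.73, rho = -0.58) and TIMP2 (r = -0.68, rho = -0.48). Without the 2 hearts farthest from the median of the member, r was 0.17, -0.34 and -0.26. For the other 5 members r lay between -0.36 (MMP9) and -0.14 (ADAMTS4). The part of this share in the levels of MMPs and TIMPs was not tested.

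**Figure D3:**
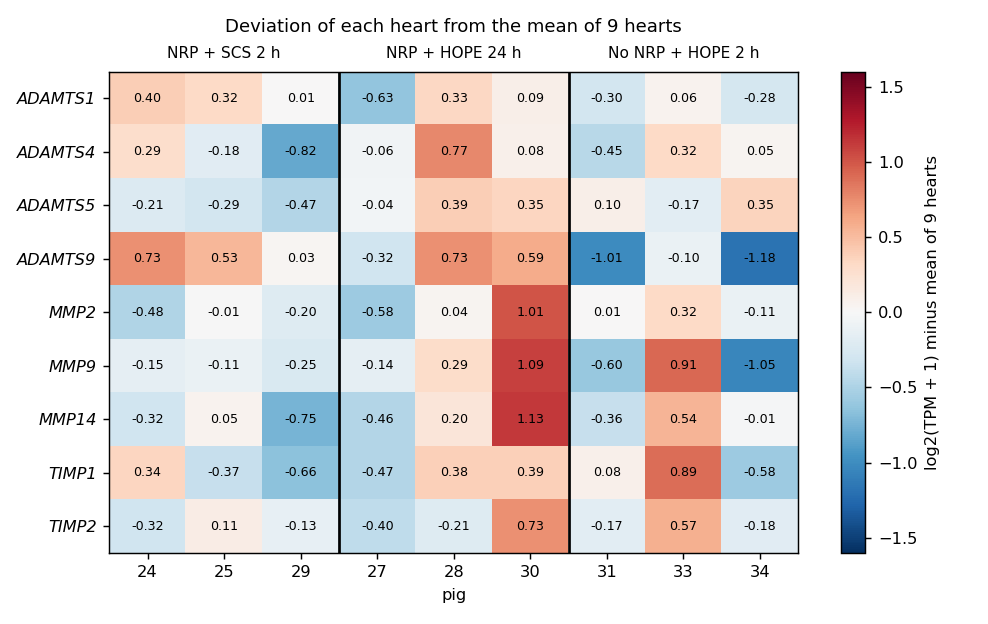
Log2(TPM + 1) of each listed gene in each heart minus its mean over the 9 hearts, with hearts in columns (pig number) arranged by group. Red marks higher and blue lower, the columns of pigs 30 and 33 are red for every MMP and TIMP, and ADAMTS9 is below its mean in all 3 No NRP + HOPE 2 h hearts (-1.01, -0.10 and -1.18).

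Across hearts, MMP2, MMP14 and TIMP2 varied together, as did ADAMTS1 and ADAMTS9. MMP2 varied with TIMP2 (Pearson r = 0.91, Spearman rho = 0.75 over 9 hearts, r = 0.79 without the 2 hearts farthest from the median of MMP2) and with MMP14 (r = 0.89, rho = 0.83, r = 0.71 without the 2 farthest). MMP14 varied with TIMP2 at r = 0.85 and rho = 0.57. ADAMTS1 varied with ADAMTS9 at r = 0.79 and rho = 0.90, and at r = 0.92 without the 2 farthest hearts and also within groups. ADAMTS4 was nearest to TIMP1 (r = 0.64, rho = 0.75). MMP9 and TIMP2 had r = 0.78, but r = -0.042 without the 2 hearts farthest from the median of MMP9. These values describe 28 pairs of genes over the same 9 libraries, which share total and mitochondrial share, and no p was computed. With median-of-ratios scaling r was 0.85 for MMP2 with TIMP2, 0.82 for MMP2 with MMP14 and 0.76 for ADAMTS1 with ADAMTS9.

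**Figure D4:**
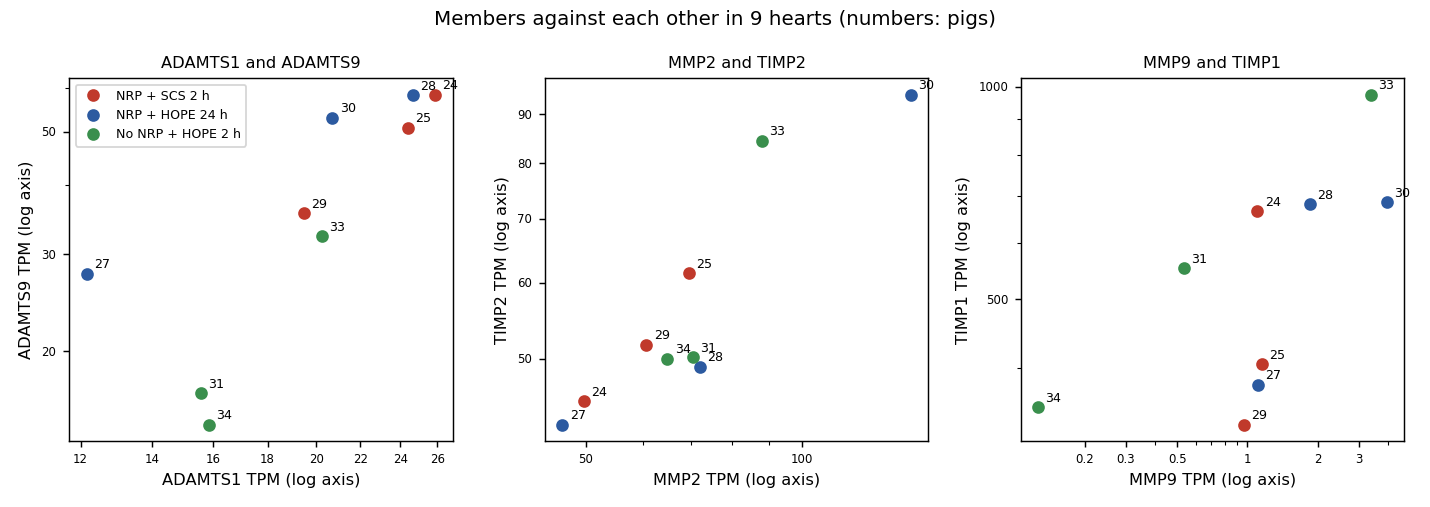
TPM of a pair of members in the 9 hearts, both axes on a log scale, with 1 point per heart coloured by group and labelled with the pig number. ADAMTS1 and ADAMTS9 rank the hearts alike (rho = 0.90), MMP2 and TIMP2 are both highest in pigs 30 and 33, and TIMP1 exceeds MMP9 in every heart, by 173 TPM per TPM or more.

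Markers of cell types were set beside the members in the same way. MMP2 varied with the summed fibroblast markers at r = 0.71 and rho = 0.75. With the summed pericyte and smooth muscle markers r was similar for MMP2 (r = 0.68, rho = 0.38), MMP14 (r = 0.65, rho = 0.43) and TIMP2 (r = 0.69, rho = 0.77). Within groups MMP2 had r = 0.70 with the fibroblast sum and r = 0.88 with the pericyte and smooth muscle sum. ADAMTS9 varied with the summed neutrophil markers at r = 0.83 and rho = 0.80, ADAMTS1 at r = 0.81 and rho = 0.77. With the summed endothelial markers ADAMTS9 had r = 0.34 and rho = 0.23. Of the neutrophil markers, S100A9 averaged 0.180 ± 0.172 TPM (SD, n = 3) in Group 3, 4.86 ± 3.11 TPM in Group 2 and 1.26 ± 1.22 TPM in Group 1. Against Group 2 its log2 fold change in Group 3 was -2.17 (limma p = 0.000389, adjusted p = 0.14, exact permutation p = 0.1). The summed neutrophil list was lower in all 3 hearts without NRP (1.82 to 6.22 TPM) than in Group 2 (6.38 to 16.9 TPM), as was ADAMTS9. The part of neutrophils in the ADAMTS9 result was not tested.

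The genes most like each member over the 9 hearts, by Pearson r of log2(TPM + 1) among the tested genes with a symbol, were NOLC1 (r = 0.99), FRMD4A (0.98) and ACSL4 (0.98) for ADAMTS9, and TRMT6 (0.95), HSPA14 (0.94) and TIPIN (0.94) for ADAMTS1. For ADAMTS4 they were GPR84 (0.90), ZC3H12C (0.90) and ELL2 (0.90). GPR84 is a receptor of myeloid cells, and NOLC1 is a nucleolar protein. For the MMPs they were ARF6 (0.96), JMJD8 (0.96) and MFSD3 (0.95) with MMP2, HS6ST1 (0.96), JAM2 (0.95) and MAB21L1 (0.94) with MMP9, and CTSH (0.98), SLCO2B1 (0.95) and ZHX2 (0.95) with MMP14. CTSH encodes the lysosomal protease cathepsin H. For the inhibitors they were DNMBP (0.97), GFRA3 (0.93) and COL16A1 (0.90) with TIMP1, and FRMD8 (0.96), SLC6A4 (0.96) and SH3BP5 (0.96) with TIMP2. Picked as the highest r among all genes over 9 hearts, these names are a description.

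The balance of protease to inhibitor was compared within hearts as log2((TPM of protease + 1)/(TPM of inhibitor + 1)) for 3 pairs. Between 173 TPM (pig 30) and 2779 TPM (pig 34) of TIMP1 were present per TPM of MMP9. The mean log2 ratio of MMP9 to TIMP1 was -7.76 ± 0.48 (SD, n = 3) in Group 2, -7.50 ± 0.39 in Group 1 and -8.19 ± 0.36 in Group 3. With MMP9 so low, its ratio rests largely on the pseudocount. Lowering it from 1 to 0.1 TPM moved the difference from 0.26 to 0.53 in Group 1 against Group 2, from -0.44 to -0.92 in Group 3 against Group 2 and from 0.69 to 1.45 in Group 1 against Group 3. TIMP1 messenger RNA thus exceeded MMP9 messenger RNA by a wide margin in every heart and group. MMP2 and TIMP2 were nearly level, with 0.665 to 0.962 TPM of TIMP2 per TPM of MMP2, and the mean log2 ratio of MMP2 to TIMP2 was 0.18 ± 0.045, 0.42 ± 0.26 and 0.30 ± 0.22 in the same order. TIMP2 exceeded MMP14 in every heart, by 2.27 to 4.89 TPM per TPM, and the mean log2 ratio of MMP14 to TIMP2 was -1.79 ± 0.34, -1.32 ± 0.27 and -1.59 ± 0.18. Groups overlapped in each of these 9 comparisons, and the exact permutation p, two-sided and unadjusted, was between 0.2 and 0.6.

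Related genes were read from 6 lists written by hand. Their counts at an unadjusted p under 0.05 stand beside 1.82% of all genes tested higher and 3.14% lower in Group 1 against Group 2, and 2.57% higher and 4.65% lower in Group 3 against Group 2. With 5 to 16 genes tested per list, 1 gene alone is a larger share than these, so the counts are a description. Of the 21 other ADAMTS and ADAMTS-like genes 17 were listed and 14 tested. Of these, 1 was lower and 0 higher at an unadjusted p under 0.05 in Group 1 against Group 2 (median log2 fold change of the 14 -0.0069), and 1 was lower and 1 higher in Group 3 against Group 2 (median -0.0084). The lower gene in both was ADAMTS7, which cuts cartilage oligomeric matrix protein. ADAMTS7 was at 27.9, 28.1 and 18.7 TPM in Group 2, 8.45, 7.19 and 18.0 TPM in Group 1 and 8.27, 12.9 and 15.8 TPM in Group 3, so that all 6 hearts stored in HOPE lay below all 3 stored in SCS. Over Group 2 its log2 fold change was -1.17 (SE 0.37, limma p = 0.00719, adjusted p = 0.712) in Group 1 and -0.98 (SE 0.37, limma p = 0.0194, adjusted p = 0.583) in Group 3, each with an exact permutation p of 0.1. In Group 1 it passed an adjusted p under 0.05 in limma in 1 of 16 alternatives (array weights, -1.51, adjusted p = 0.04). The value of ADAMTS7 in Group 3 missed an unadjusted p of 0.05 without pig 24 (-0.89), pig 25 (-0.88) or pig 31 (-0.74). ADAMTS2, a procollagen N-proteinase, was higher in Group 3 (3.40, 5.56 and 4.93 TPM) than in Group 2 (1.10, 2.79 and 2.71 TPM), with a log2 fold change of 0.85 (SE 0.35, limma p = 0.0322, adjusted p = 0.651, exact permutation p = 0.1), but it missed an unadjusted p of 0.05 without pig 24 (0.57), pig 33 (0.73) or pig 34 (0.80). ADAMTS8 and ADAMTSL2 had log2 fold changes of -0.66 and 0.60 there (adjusted p = 0.82 for both).

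Of 20 other MMPs 14 were listed and only 5 tested, with 1 lower and 0 higher at an unadjusted p under 0.05 in both Group 1 and Group 3 against Group 2 (medians of the 5 0.17 and 0.23). MMP11, or stromelysin 3, was at 146, 138 and 95.2 TPM in Group 2, 79.1, 48.6 and 72.6 TPM in Group 1 and 63.3, 36.4 and 112 TPM in Group 3. Pig 34 overlapped the SCS hearts, and the other 5 hearts stored in HOPE lay below them. The log2 fold change of MMP11 over Group 2 was -0.92 (SE 0.37, limma p = 0.0282, adjusted p = 0.943, exact permutation p = 0.1) in Group 1 and -0.95 (SE 0.37, limma p = 0.0235, adjusted p = 0.602, exact permutation p = 0.2) in Group 3. With median-of-ratios scaling both missed an unadjusted p of 0.05 (-0.77 and -0.85), as they did without pig 24 (-0.80 and -0.84) or pig 25 (-0.84 and -0.88). The value in Group 1 also missed it without pig 28 (-0.71) and that in Group 3 without pig 33 (-0.56). The other 4 tested, MMP15, MMP16, MMP19 and MMP23B, did not pass, with the largest log2 fold changes in Group 3 (0.79 for MMP23B and 0.67 for MMP19, adjusted p = 0.796 and adjusted p = 0.715). Interstitial collagenases and stromelysins other than MMP11 were either not listed or under the filter, among them MMP3, MMP8 and MMP13.

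Of 10 other inhibitors 7 were listed and 5 tested (A2M, PCOLCE2, RECK, SPOCK2 and TFPI2), although PCOLCE2 is an enhancer of procollagen C-proteinase rather than an inhibitor. At an unadjusted p under 0.05, 1 was higher and 0 lower in both Group 1 and Group 3 against Group 2 (medians of the 5 -0.065 and 0.080). TFPI2, known chiefly as a Kunitz inhibitor of plasmin and other serine proteases in the matrix, was at 108, 68.7 and 88.2 TPM in Group 2, 136, 382 and 196 TPM in Group 1 and 177, 333 and 146 TPM in Group 3. All 6 hearts stored in HOPE were above all 3 stored in SCS, as 5 of the 6 were in HBB. Over Group 2 its log2 fold change was 1.31 (SE 0.39, limma p = 0.00466, adjusted p = 0.584) in Group 1 and 1.23 (SE 0.39, limma p = 0.007, adjusted p = 0.483) in Group 3, each with an exact permutation p of 0.1. In Group 3 TFPI2 passed an adjusted p under 0.05 in limma in 1 of 16 alternatives (array weights, 1.67, adjusted p = 0.0472). A2M, the broad plasma inhibitor, had a log2 fold change of 0.78 (adjusted p = 0.78, exact permutation p = 0.2) in Group 3 over Group 2, and SPOCK2 and PCOLCE2 had -0.52 and -0.19 in Group 1.

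Of the genes in these lists, the plasminogen activator PLAU differed most. Of 13 proprotein convertases, plasminogen activators and their regulators 10 were listed and 8 tested, with 2 higher and 0 lower at an unadjusted p under 0.05 in Group 1 against Group 2, beside 1.82% of all genes higher and 3.14% lower (median log2 fold change of the 8 0.19) and 1 higher and 0 lower in Group 3 against Group 2 (median 0.025). In Group 1 against Group 3, 1 was higher, PLAT, which was the sole call of the 6 lists in that comparison. PLAU, or urokinase, which turns plasminogen into plasmin and so leads to activation of pro-MMPs, was at 74.1, 70.9 and 59.0 TPM in Group 2, 121, 263 and 402 TPM in Group 1 and 144, 260 and 138 TPM in Group 3. The lowest heart stored in HOPE was above the highest stored in SCS. The red cell transcript HBB was likewise above all SCS hearts in 5 of these 6, pig 27 being the exception. The log2 fold change of PLAU over Group 2 was 1.77 (SE 0.39, limma p = 0.000491, adjusted p = 0.206) in Group 1 and 1.34 (SE 0.39, limma p = 0.00422, adjusted p = 0.414) in Group 3, each with an exact permutation p of 0.1. PLAU passed an adjusted p under 0.05 in limma in 2 of 16 alternatives for the former comparison (array weights and leaving out pig 27) and in 1 of 16 for the latter (array weights), with adjusted p between 0.0299 and 0.698 and between 0.0221 and 0.965. PLAT, or tissue-type plasminogen activator, was at 166, 190 and 125 TPM in Group 2, 225, 318 and 366 TPM in Group 1 and 170, 245 and 98.5 TPM in Group 3. It was higher in Group 1 by 0.91 than in Group 2 (SE 0.33, limma p = 0.0168, adjusted p = 0.893, exact permutation p = 0.1) and by 0.89 than in Group 3 (limma p = 0.0191, adjusted p = 0.7, exact permutation p = 0.2). Without pig 30 both of these values of PLAT missed an unadjusted p of 0.05 (0.76 and 0.73). The former also missed it without pig 29 (0.74), and the latter with array weights (0.59) and without pig 34 (0.54). FURIN and PCSK6, proprotein convertases that activate MMP14 and ADAMTS proenzymes, had log2 fold changes between -0.48 and 0.57 over Group 2, and neither passed the test.

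**Figure D5:**
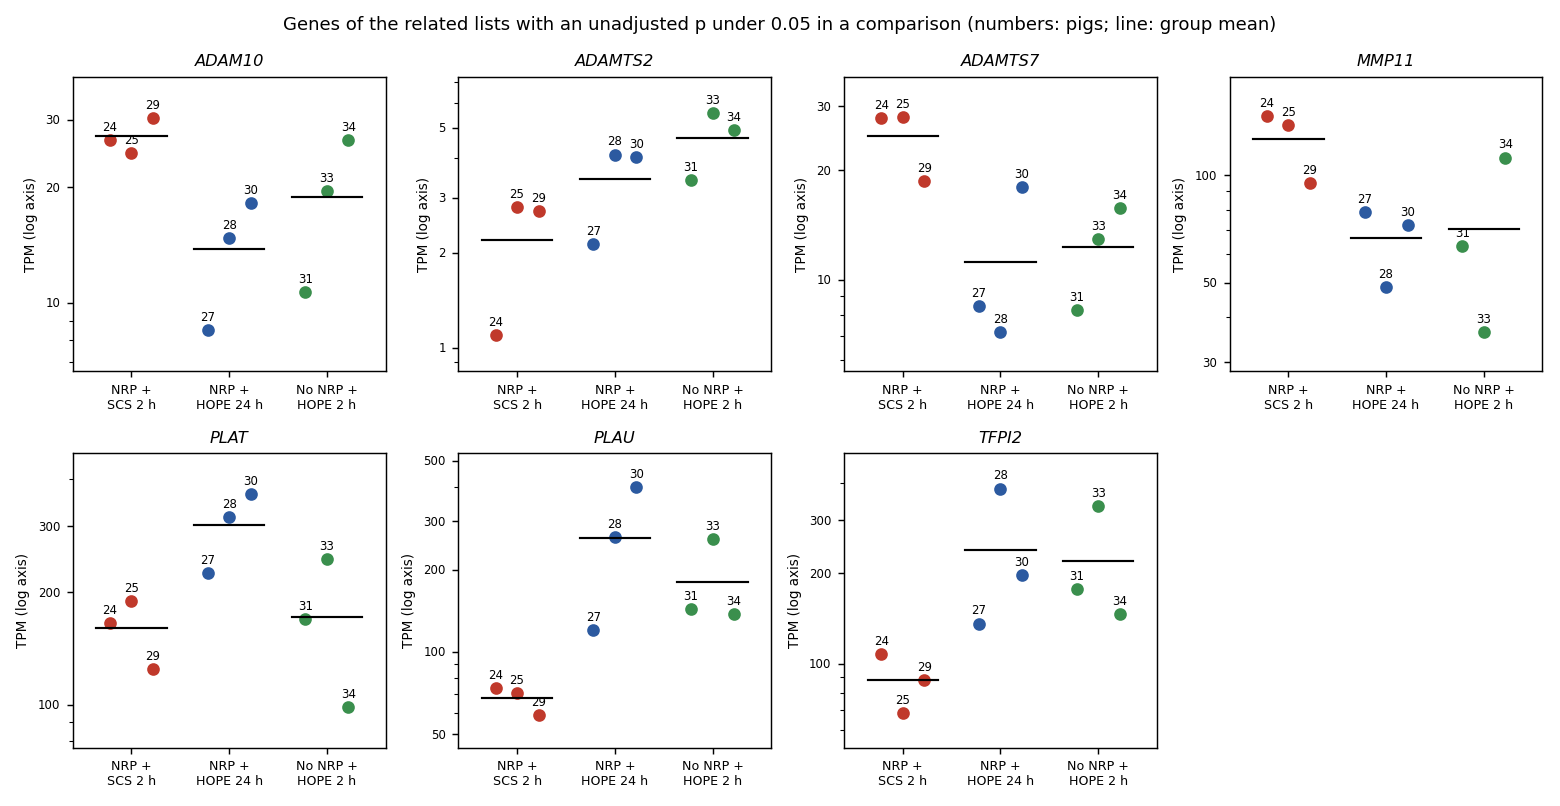
TPM on a log axis for the 7 related genes with an unadjusted p under 0.05 in at least 1 comparison, with 1 point per heart (pig number above it) and a line at the mean of each group of 3. PLAU (59.0 to 74.1 TPM in NRP + SCS 2 h) and TFPI2 are higher, and ADAMTS7 lower, in all 6 hearts stored in HOPE than in the 3 stored in SCS. The share of all genes separated in this way was not computed.

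Of 11 ADAM sheddases all were listed and 8 tested, with 1 lower and 0 higher at an unadjusted p under 0.05 in Group 1 and 0 in Group 3 against Group 2 (medians of the 8 -0.097 and -0.086). ADAM10, the main constitutive sheddase, was at 26.5, 24.6 and 30.3 TPM in Group 2, 8.49, 14.8 and 18.2 TPM in Group 1 and 10.7, 19.6 and 26.5 TPM in Group 3. It was lower in Group 1 than in Group 2 by a log2 fold change of -0.98 (SE 0.36, limma p = 0.0177, adjusted p = 0.901, exact permutation p = 0.1), without overlap, and the value in Group 3 was -0.58 (exact permutation p = 0.3). The value in Group 1 missed an unadjusted p of 0.05 without pig 27 (-0.69) or pig 29 (-0.90). ADAM9, another sheddase, had -0.36 (exact permutation p = 0.7) and -0.76 (SE 0.42, exact permutation p = 0.1). ADAM33 had 0.63 (SE 0.40, exact permutation p = 0.2) and 0.087 (exact permutation p = 0.9), and ADAM15 had -0.58 (SE 0.34, exact permutation p = 0.3) and 0.15 (exact permutation p = 0.6). ADAM17, the other main sheddase and a target of TIMP3, had 0.067 and -0.11 (exact permutation p = 0.9 for both).

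Genes of the substrates showed no difference that passed the test. Of 22 proteoglycans, basement membrane proteins and other targets 19 were listed and 16 tested, and 0 had an unadjusted p under 0.05 in limma in any of the 3 comparisons. The median log2 fold change of the 16 was 0.025 in Group 1 and -0.093 in Group 3 over Group 2. The largest in size was that of HSPG2 (perlecan), -0.58 (SE 0.35, exact permutation p = 0.1) in Group 3, where the 3 hearts (22.9, 43.1 and 47.2 TPM) lay below the Group 2 hearts (57.5, 53.4 and 52.5 TPM). DCN (decorin), a small leucine-rich proteoglycan that binds collagen, had 0.37 there (SE 0.23, exact permutation p = 0.1), and the related FMOD (fibromodulin) and BGN (biglycan) had -0.45 (exact permutation p = 0.6) and 0.11 (exact permutation p = 0.9). VCAN (versican), the main cardiac substrate of ADAMTS proteases, was low at 1.92 to 3.13 TPM in the 9 hearts, with log2 fold changes of 0.052 and 0.039 (SE 0.30, exact permutation p = 0.8 for both) in Group 1 and Group 3 over Group 2. ADAMTS4 was thus far more abundant per length than VCAN in every heart. ACAN (aggrecan), the substrate for which the aggrecanases are named, was at 0 in 6 hearts and at most 0.294 TPM.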

How the data were processed

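Gene expression was measured by RNA sequencing in 9 porcine hearts, 3 per group. According to the labels and the submitters' processing notes, reads were converted with bcl2fastq 2.17, trimmed with Trimmomatic 0.36, aligned with STAR 2.5.2b and counted per gene with featureCounts of Subread 1.5.2, and the authors tested counts with DESeq2. The genome was the pig reference held by Ensembl, whose build and annotation release are not given in the sources used here. The authors deposited TPM values, scaled to the same sum in every heart over 25149 genes (12006 without a symbol). Neither counts nor depth can be had from TPM, so no counting interval is given. There were 9 more columns, which match no sample's labels here and were left out.

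The filter kept the 11782 genes that reached 1 TPM in 3 or more hearts. Log2(TPM + 1) of all 9 hearts was fitted with 1 mean per group in limma 3.58.1 (R 4.3.3, eBayes with trend, two-sided), with Benjamini-Hochberg adjustment over all genes tested. Calls needed an adjusted p under 0.05 together with a change of more than 1 log2 unit, and calls at an unadjusted p under 0.05 are given as such. Fold changes on this scale understate those of low genes. Single values and ratios were compared by the exact permutation test, for which 3 against 3 hearts allow no p under 0.1. Hearts came from separate pigs. The script was tested on simulated data. Figures were drawn with matplotlib 3.10.9.

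All members are named. From each list of related genes, up to 4 with the largest absolute log2 fold change against Group 2 are named, and for each member the 3 genes most like it. VCAN, ACAN, ADAM17 and the tested or untested genes listed by name alone were added for their role after their values were seen. The members and the lists were chosen with earlier results of these data known. Alternatives were another pseudocount, other filters, median-of-ratios and quantile scaling, removal of mitochondrially encoded genes, array weights and leaving out each heart. Further alternatives were a fit of only the 6 hearts compared, eBayes without trend and robust eBayes. Of 7 pairs of protease and inhibitor planned, 3 were computed, since the others need TIMP3.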

Additional observations from a re-analysis of the deposited data

How the results depend on the processing

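ADAMTS9 in Group 3 against Group 2 kept its direction and an unadjusted p under 0.05 in limma in 16 of 16 alternatives (log2 fold change -1.53 to -0.87, adjusted p 0.201 to 0.999). In Group 1 against Group 3 it did so in 16 of 16 (0.89 to 1.43, adjusted p 0.235 to 1), though barely (p just under 0.05) without pig 28, at 0.90. The number of members at an adjusted p under 0.05 stayed at 0 throughout. At an unadjusted p, the number in Group 1 against Group 2 went from 0 to 1 with no filter (ADAMTS5), with median-of-ratios scaling (MMP14), with quantile normalization (MMP14), without mitochondrially encoded genes (ADAMTS5) and with array weights (ADAMTS4), and lay between 0 and 2 when single hearts were left out, 2 being MMP2 and MMP14 without pig 27. In Group 3 against Group 2 the number went from 1 to 2 with no filter (ADAMTS5 added) and with array weights (TIMP1 added). In Group 1 against Group 3 it was between 1 and 2 when hearts were left out (MMP9 added without pig 33). Among the related genes, MMP11 lost its unadjusted call in 4 of 16 alternatives in both comparisons with Group 2, ADAMTS2 in 3 of 15, ADAMTS7 in Group 3 in 3 of 16, ADAM10 in Group 1 in 2 of 16, and PLAT in Group 1 in 2 of 16 against Group 2 and 3 of 16 against Group 3, while those of ADAMTS7 in Group 1 and of TFPI2 and PLAU held in 16 of 16.

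Over all alternatives of the fold changes, 517 kept direction and side of the threshold, 27 changed sign, 21 lost and 7 gained an unadjusted p under 0.05, and none of the sign changes had passed the test. With median-of-ratios scaling ADAMTS9 in Group 1 against Group 2 turned to 0.044, and TIMP1 and TIMP2 in Group 1 against Group 3 to 0.013 and 0.011. With array weights, values turned to 0.037 (ADAMTS9) and -0.071 (TIMP2) in Group 1 against Group 2, 0.54 (MMP9) in Group 3 against Group 2, and -0.19 (MMP2), -0.091 (MMP9) and -0.16 (MMP14) in Group 1 against Group 3. Leaving out single hearts gave ranges across zero of -0.30 to 0.23 for ADAMTS9, -0.038 to 0.76 for MMP2 and -0.19 to 0.37 for TIMP2 in Group 1 against Group 2. In Group 3 against Group 2 these ranges were -0.080 to 0.47 for ADAMTS4, -0.66 to 0.32 for MMP9, -0.021 to 0.71 for TIMP1 and -0.062 to 0.31 for TIMP2. In Group 1 against Group 3 they were -0.098 to 0.38 for ADAMTS1, -0.35 to 0.45 for MMP2, -0.19 to 0.61 for MMP14, -0.39 to 0.35 for TIMP1 and -0.38 to 0.21 for TIMP2. Other ranges kept their sign but moved by over 1.5 times. These were, in Group 1 against Group 2, -0.51 to -0.030 for ADAMTS1 (nearest zero without pig 27), 0.21 to 0.76 for ADAMTS4 (lowest without pig 29, highest without pig 24), 0.24 to 0.86 for MMP9 (without pigs 30 and 27), 0.21 to 1.0 for MMP14 (without pigs 30 and 27) and 0.11 to 0.61 for TIMP1 (without pigs 29 and 24). In Group 3 against Group 2 they were 0.18 to 0.42 for MMP2 and 0.15 to 0.60 for MMP14, and in Group 1 against Group 3 0.034 to 0.46 for ADAMTS4 and 0.26 to 1.24 for MMP9. A pseudocount of 0.1 moved the difference in the log2 ratio of MMP9 to TIMP1 to -0.92 in Group 3 against Group 2 and to 1.45 in Group 1 against Group 3. The causes were not tested. No paired analysis was possible because the groups hold different pigs and share no replicate number. Ratios that need TIMP3 were not run. The depth behind low values such as those of MMP9 and ADAMTS5 is unknown, and 3 hearts a group limit what could be detected.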
